A study of Mus musculus with 4 samples.

Results

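The TEAD transcription factor genes, their coactivators YAP1 and WWTR1, and the kinases and angiomotins of the Hippo pathway were examined in late two-cell mouse embryos cultured with or without an inhibitor of MYC. The 10 genes Tead1, Tead2, Tead3, Tead4, Yap1, Wwtr1, Lats1, Lats2, Amot and Amotl2 were taken by symbol from the 24411 genes listed in each library, and all 10 were found. Embryos of the ICR strain were produced by in vitro fertilization, cultured in KSOM medium and collected at 36 h post-insemination (hpi). Of 4 polyadenylated RNA libraries, each made from 10 pooled embryos, 2 came from control embryos given DMSO, the solvent, and 2 from embryos given the inhibitor at 6 µM. The inhibitor is a small molecule that blocks the pairing of MYC with its partner MAX. The paper used 2 structurally unrelated inhibitors of this kind. The treated libraries came from embryos given the one for which the paper took 6 µM as the minimum effective concentration. The name of this compound is on the axis of the plot of FPKM in each library. The labels of the samples give 3 hpi as the start of both treatments and the description of the series gives 6 hpi, and no genetic change was made in either group. A library of pooled embryos does not separate fewer cells of a kind from less RNA per cell.

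The Hippo pathway links cell contact and polarity to transcription. TEAD proteins bind DNA and need a coactivator, YAP1 or WWTR1 (also called TAZ), to switch genes on. The kinases LATS1 and LATS2 phosphorylate both coactivators and keep them in the cytoplasm, and angiomotins such as AMOT and AMOTL2 bind YAP1 and help LATS act. In the mouse embryo TEAD4 is required to form the trophectoderm, the outer layer of the blastocyst, and YAP1 is supplied by the oocyte before the embryo makes its own.

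The promoters of 8 of the 10 genes were found in RefSeq (GRCm38.p6, 250 bases before and 50 after each start). Those of Tead1 and Tead4 were not found, so neither gene was searched. The 8 genes were searched on both strands for CACGTG, the E-box that MYC and MAX bind, and for CATTCC. The latter is the core that TEAD proteins bind, which reads GGAATG on the other strand. The E-box was found for 3 of the 8 genes, Yap1, Lats2 and Amot, against 7.15% of 32851 promoters and 8.09% of 27025 genes in the same table. The TEAD core was found for 5 of the 8, Yap1, Lats2, Wwtr1, Tead3 and Amotl2, against 14.7% of the promoters and 16.6% of the genes. The promoters with an E-box are shown because the inhibitor acts on the pair that binds it. They run 5′ to 3′ on the strand of the gene, the capitals mark the E-box and the TEAD core, and the motifs do not overlap.
Yap1, chr9:8004547-8004846, minus strand: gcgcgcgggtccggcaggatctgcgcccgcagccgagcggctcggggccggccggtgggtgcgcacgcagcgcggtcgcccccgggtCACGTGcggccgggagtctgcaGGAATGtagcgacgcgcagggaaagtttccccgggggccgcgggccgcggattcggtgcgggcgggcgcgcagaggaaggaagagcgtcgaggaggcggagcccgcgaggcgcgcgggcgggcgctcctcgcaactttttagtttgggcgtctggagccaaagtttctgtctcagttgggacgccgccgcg
Lats2, chr14:57746074-57746373, minus strand: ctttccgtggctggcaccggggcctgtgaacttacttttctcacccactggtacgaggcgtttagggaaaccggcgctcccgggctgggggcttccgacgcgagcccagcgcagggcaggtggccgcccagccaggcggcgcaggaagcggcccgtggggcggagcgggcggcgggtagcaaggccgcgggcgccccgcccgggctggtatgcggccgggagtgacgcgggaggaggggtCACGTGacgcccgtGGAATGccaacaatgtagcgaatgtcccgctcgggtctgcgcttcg
Amot, chrX:145487590-145487889, minus strand: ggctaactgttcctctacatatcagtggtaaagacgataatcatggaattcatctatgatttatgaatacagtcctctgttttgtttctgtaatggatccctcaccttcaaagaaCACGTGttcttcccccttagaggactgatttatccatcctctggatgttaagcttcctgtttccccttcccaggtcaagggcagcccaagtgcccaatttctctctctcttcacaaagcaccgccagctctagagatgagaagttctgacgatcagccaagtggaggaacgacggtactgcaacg
In Yap1 the E-box began 163 bases before the start base and the TEAD core 141 bases before it. In Lats2 the E-box began 10 bases before the start and the TEAD core 4 bases after it, and the second Lats2 start in the table held neither. In Amot the E-box began 135 bases before the start. A match of letters does not show binding. Of the 3 genes with an E-box, the log2 fold change was above 0 for Yap1 and below 0 for Lats2 and Amot. None was past the test, as described below, and whether the motifs bear on these levels was not tested.

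The libraries held between 18206584 and 20718690 expected counts. All 6 oocyte markers and all 6 two-cell markers examined were at 1 FPKM or more in every library (FPKM is the number of fragments scaled to transcript length and library size). DMSO replicate 1 stood apart from the other libraries. Its CPM (counts scaled to library size) differed over 2-fold from that of DMSO replicate 2 for 42.2% of tested genes, against 20.6% between the treated replicates. DMSO replicate 1 differed over 2-fold from treated replicates 1 and 2 for 58.4% and 54.7% of genes. For DMSO replicate 2 these values were 28.2% and 22.9%, so it was nearer to both treated libraries than to DMSO replicate 1. The summed FPKM of the oocyte markers was 857 and 2067 in control and 4370 and 3577 in treated embryos, most of it from Oosp1 in every library, while Zp3 had 205 and 75.1 FPKM in control and 58.95 and 65.1 FPKM in treated embryos. That of 12 cumulus cell markers was 22.1 and 13.4 in control and 10.3 and 6.86 in treated embryos, with 8 of them above 0 in any library, Amh, Foxl2, Ptx3 and Inhba at 0 in all, and most of the sum from Amhr2. Of 6 sperm markers 4 were above 0 in any library, and Prm1 and Tnp2 were at 0. Their sums were 2.7 and 4.44 in control and 16.1 and 9.43 in treated embryos, most of each from Prm2. Tnp1 and Akap4 were above 0 only in treated replicate 2, and Odf1 had 1.14 and 0 FPKM in control and 0.35 and 0.24 FPKM in treated embryos. The sum of the 2-cell markers was 2668 and 2031 in control and 1761 and 1918 in treated embryos, and its members lay on both sides, with a log2FC below 0 for Dppa2, Dppa4 and Eif1a and above 0 for Zscan4c, Zscan4d and Zfp352. The sums of all 4 marker lists thus did not overlap between the groups, and their part in the results was not tested.

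Tead4 was the TEAD gene that separated the groups most clearly. Tead4, located at chr6:128227143-128300813 (GRCm38.p6), had 7.98 and 4.81 FPKM in the control replicates and 1.82 and 1.01 FPKM in the treated replicates, from 412, 241, 102 and 56 counts. Both treated libraries lay below both control libraries. The lower control library was above the higher treated library by more than the treated libraries were apart, but by less than the control libraries were apart. Its mean was 6.40 ± 2.24 FPKM (SD, n = 2) in control and 1.42 ± 0.573 FPKM (SD, n = 2) in treated embryos. The quasi-likelihood test of edgeR gave a log2FC (inhibitor over DMSO) of -2.34, with a standard error (SE) of 0.61, an unadjusted p of 0.00587 and a Benjamini-Hochberg adjusted p of 0.333. This 5.05-fold difference did not pass the threshold of an adjusted p under 0.05 with |log2FC| > 1. DESeq2 with transcript lengths gave a log2FC of -2.36 (SE 0.67, adjusted p = 0.0200), which passed. Without DMSO replicate 1 the log2FC of Tead4 was -1.77 by edgeR (unadjusted p = 0.0136), and across the alternatives its adjusted p ran from 0.00384 to 0.992.

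The other TEAD genes were lower in level than Tead4 in control embryos, and whether their differences departed from that of Tead4 was not tested. Tead1, at chr7:112679356-112906784, had 1.74 and 0.42 FPKM in control and 0.12 and 0.52 FPKM in treated embryos. DMSO replicate 1 was the only library above 1 FPKM, and the groups overlapped. edgeR estimated its log2FC at -1.999 (SE 0.98, adjusted p = 0.365), and at -0.44 with DMSO replicate 1 left out. Without DMSO replicate 2 the call rule was met by Tead1 (adjusted p = 0.0212 by edgeR). Tead2, at chr7:45215792-45233468, the TEAD gene usually noted for expression in the early embryo, had 2.05 and 1.05 FPKM in control and 1.89 and 1.23 FPKM in treated embryos. The 2 groups covered nearly the same range, with a log2FC of -0.17 by edgeR (SE 0.88, adjusted p = 0.936) that was 0.57 without DMSO replicate 1 and 0.011 with library totals. Tead3, at chr17:28331671-28350805, had 0 counts in both control libraries and 9 and 15 counts in the treated libraries, too few for the test. Against 3 counts, the limit that a count of 0 allows in each control library, the mean CPM of Tead3 was 3.35-fold higher in treated embryos. This value covers counting error in the control libraries only, and not in the 9 and 15 treated counts. Its level stayed low, at 0.20 and 0.32 FPKM in the treated libraries.

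**Figure D1:**
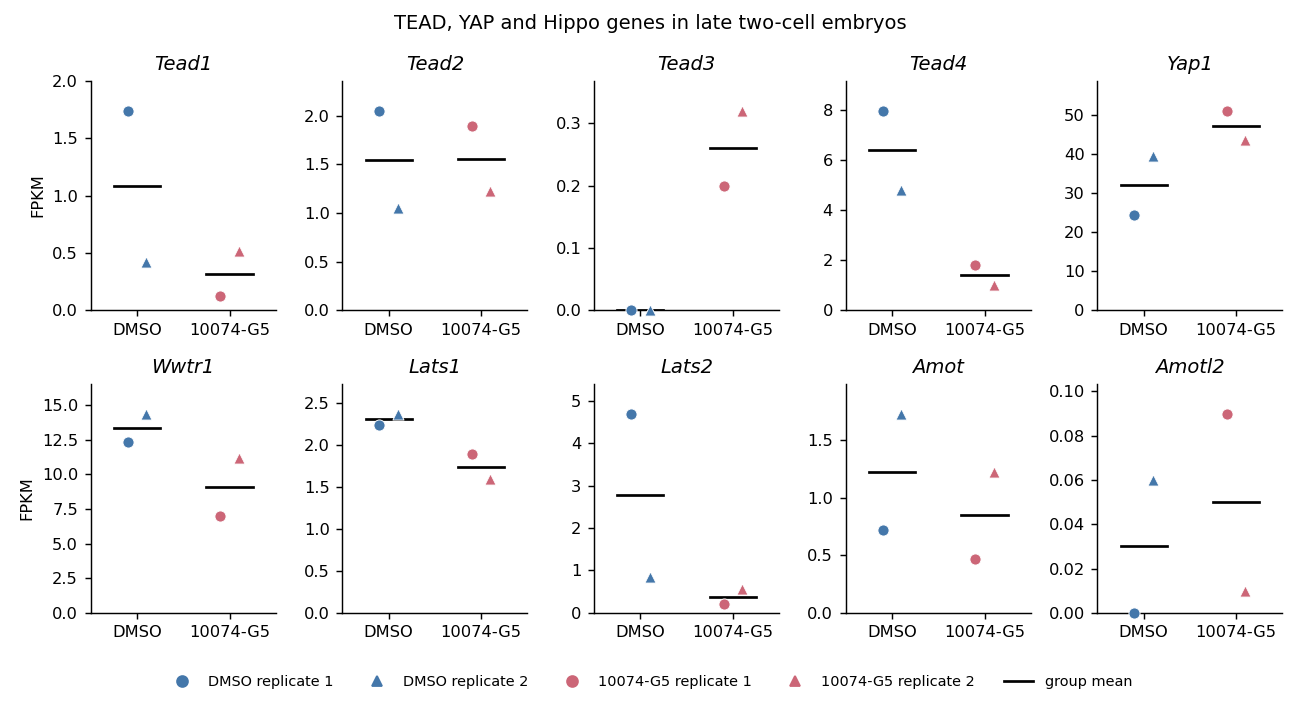
FPKM of the 10 genes in each of the 4 libraries (vertical axes, linear from 0, one scale per gene) for the DMSO group and the group given the MYC inhibitor, whose compound name is on the axis, with points for libraries and lines for group means. Both treated libraries lie below both control libraries for Tead4, Wwtr1, Lats1 and Lats2, and above both for Yap1 and Tead3.

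The composition of the TEAD transcripts was compared within each library, which does not depend on the scaling between libraries. Tead4 made up 67.8% and 76.6% of the summed FPKM of the 4 TEAD genes in control embryos, and 45.2% and 32.8% in those treated. Tead2 made up 17.4% and 16.7% in control and 46.9% and 39.9% in treated embryos. Control embryos thus had Tead4 as the leading TEAD transcript in both libraries. In treated replicate 1 the shares of Tead2 and Tead4 were nearly equal, from 68 and 102 counts. In treated replicate 2 the Tead2 share was the larger, from 42 and 56 counts. The FPKM ranges of Tead2 and Tead4 overlapped in treated embryos. The Tead4 share was 72.2% ± 6.22 (SD, n = 2) against 39.0% ± 8.75 (SD, n = 2), a difference of -33.2 percentage points, and the groups did not overlap. An exact two-sided permutation test gave p = 0.333, the smallest that 2 libraries against 2 can give. Tead1 held 14.8% and 6.69% in control and 2.98% and 16.9% in treated embryos, with overlap. The summed TEAD level was 11.8 and 6.28 FPKM in control and 4.03 and 3.08 FPKM in treated embryos (exact permutation p = 0.333).

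**Figure D2:**
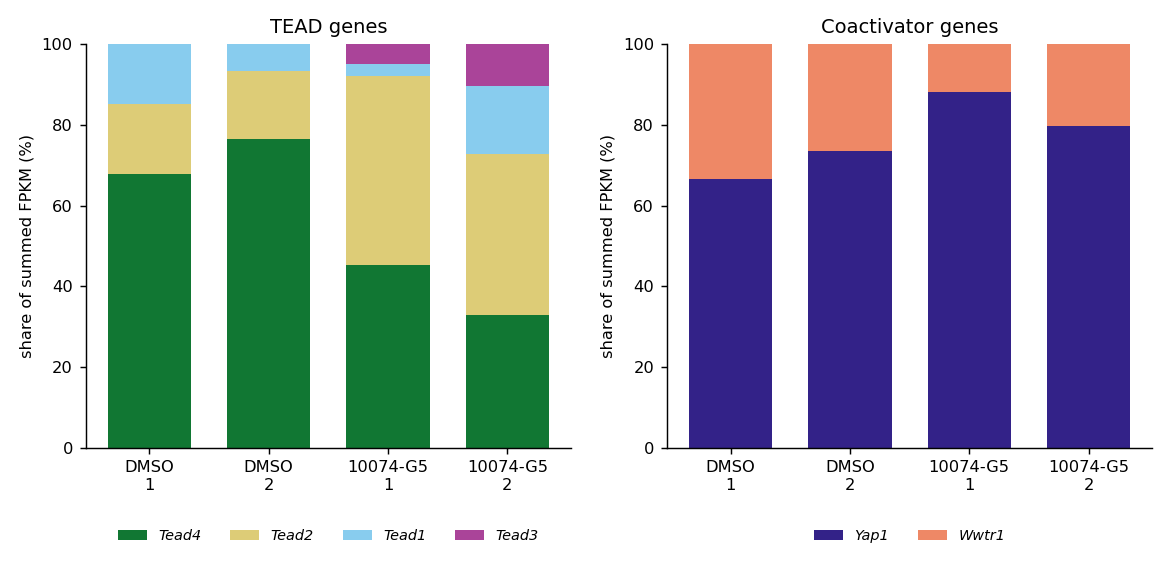
Share of each TEAD gene in the summed FPKM of the 4 TEAD genes (left) and of Yap1 and Wwtr1 in their summed FPKM (right), in percent, with 1 bar for each library. The Tead4 share is 67.8% and 76.6% in the DMSO libraries and 45.2% and 32.8% in the inhibitor libraries, and the Yap1 share is 66.5% and 73.4% against 87.99% and 79.6%.

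Yap1 was the most abundant of the 10 genes in both groups, followed by Wwtr1. Yap1, at chr9:7931999-8004638, had 24.5 and 39.7 FPKM in control and 51.2 and 43.7 FPKM in treated embryos. DMSO replicate 1 was the lowest library, and DMSO replicate 2 lay close to the treated libraries. edgeR estimated the log2FC of Yap1 at 0.44 (SE 0.36, adjusted p = 0.553), and at 0.25 with DMSO replicate 1 left out. Wwtr1, at chr3:57455644-57575910, had 12.4 and 14.4 FPKM in control and 6.98 and 11.2 FPKM in treated embryos. The control libraries of Wwtr1 were close together and both above the treated ones, which differed from each other 1.59-fold in CPM. edgeR estimated the Wwtr1 log2FC at -0.71 (SE 0.41, adjusted p = 0.418), and at -0.68 with DMSO replicate 1 left out. Gm16016 lies within the span of Wwtr1, and their reads could have been shared where exons overlap. Neither coactivator gene passed the test, and the difference in each was smaller than that of Tead4.

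The balance of the 2 coactivator transcripts separated the groups. Yap1 made up 66.5% and 73.4% of their summed FPKM in control and 87.99% and 79.6% in treated embryos, 69.9% ± 4.89 (SD, n = 2) against 83.8% ± 5.96 (SD, n = 2). The groups did not overlap, with a difference of 13.9 percentage points and p = 0.333 by the exact two-sided permutation test. The summed level of the pair was 36.9 and 54.1 FPKM in control and 58.1 and 54.9 FPKM in treated embryos, so DMSO replicate 2 was within 1 FPKM of treated replicate 2.

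Among the LATS kinases, Lats2 was lower in treated embryos and Lats1 differed less. Lats2, at chr14:57689662-57746212, had 4.70 and 0.84 FPKM in control and 0.20 and 0.56 FPKM in treated embryos, from 112, 34, 20 and 12 counts. The groups did not overlap, but DMSO replicate 1 stood far above DMSO replicate 2, with a 3.73-fold difference in CPM. The log2FC of Lats2 was -2.49 by edgeR (SE 1.04, unadjusted p = 0.0462, adjusted p = 0.334), and DESeq2 left its adjusted p empty. Without DMSO replicate 1 the log2FC was -1.24 (unadjusted p = 0.456 by edgeR). The transcript length that RSEM assigned to Lats2 from its 2 transcripts was 1524, 2499, 5191 and 1358 bases in the same order of libraries, so its FPKM moves with the transcript assignment as well as with the counts. Gm26440 and Gm52140 overlap the span of Lats2. Lats1, at chr10:7681200-7716461, had 2.23 and 2.37 FPKM in control and 1.89 and 1.59 FPKM in treated embryos. The replicates of Lats1 were close in both groups and the groups did not overlap, with a log2FC of -0.54 by edgeR (SE 0.47, adjusted p = 0.574) and of -0.45 without DMSO replicate 1. Lats1 overlaps the end of Pcmt1.

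The angiomotin genes were low and did not separate the groups. Amot, at chrX:145446424-145505966, had 0.72 and 1.73 FPKM in control and 0.47 and 1.22 FPKM in treated embryos, with a log2FC of -0.64 by edgeR (SE 0.71, adjusted p = 0.670). Its replicates differed from each other 2.02-fold in control and 2.55-fold in treated embryos in CPM, more than the 1.56-fold difference between the groups. Amotl2, at chr9:102717091-102733418, had 0 and 4 counts in control and 7 and 1 counts in treated embryos. With 3 counts as the limit that a count of 0 allows, Amotl2 was barely detected in either group and no difference was detectable at this depth.

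Ranked by mean FPKM in control embryos, the order was Yap1, Wwtr1, Tead4, Lats2, Lats1, Tead2, Amot, Tead1, Amotl2 and Tead3. The ranges of Lats2 and Lats1, of Tead2, Amot and Tead1, and of Amotl2 and Tead3 overlapped between neighbours, and the other neighbours were apart. In treated embryos the order was Yap1, Wwtr1, Lats1, Tead2, Tead4, Amot, Lats2, Tead1, Tead3 and Amotl2, and only Yap1, Wwtr1 and Amotl2 were apart from their neighbours. Tead4 thus held rank 3 in control embryos, separate from the genes on either side, and rank 5 in treated embryos, where its range overlapped both neighbours.

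Of the 10 genes, 8 passed the filter on low counts and were tested. After Benjamini-Hochberg adjustment edgeR called 0 of the 8, where 0% of the 13549 tested genes were called. At an unadjusted p under 0.05 edgeR had 2 of the 8 lower (Tead4 and Lats2) and 0 higher, where 10.1% of tested genes were lower and 4.72% higher. Without DMSO replicate 1, 1 of 9 was lower at this p, Tead4, and 0 were higher, where 7.36% of tested genes were lower and 6.44% higher. The groups did not overlap for 4 lower genes (Tead4, Wwtr1, Lats1 and Lats2), where 28.3% of tested genes were lower without overlap, and for 1 higher gene (Yap1), where 28.9% were. DESeq2 with transcript lengths called 1 of the 10 genes lower, Tead4, where it called 2.36% of 18208 genes lower, and 0 of the 10 higher, where it called 0.456% higher. Only genes with an adjusted p could be called, which were 5 of the 10 genes. Over all genes they were 7971, with 429 called lower and 83 higher. The median log2FC of the 8 genes was -0.67, and that of all tested genes was 0.04. Without DMSO replicate 1 these medians were -0.45, over 9 genes, and 0.06. The gene added to the 8 in that fit was Tead3, with a log2FC of 6.56. It had 0 counts in both control libraries and passed the filter only through the treated libraries. The medians of -0.67 and -0.45 are thus not over the same genes.

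**Figure D3:**
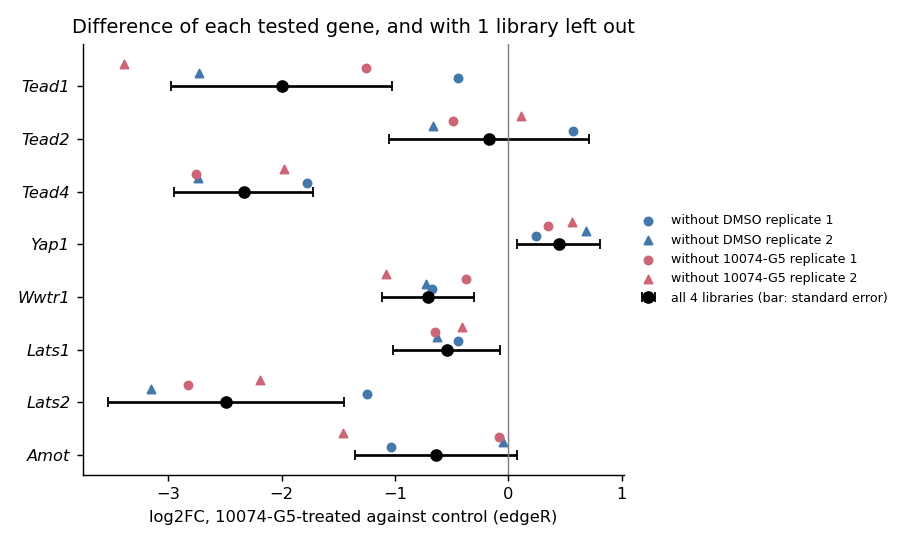
log2FC of inhibitor-treated against control embryos for the 8 tested genes by edgeR, with standard errors (black), and the log2FC with each library left out in turn (coloured points). Tead4 stays between -2.76 and -1.77, and Tead2 lies on both sides of 0.

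The 3 genes whose level over the 4 libraries was most like that of Tead4 were Psmg3, a proteasome assembly chaperone gene, the noncoding gene A930015D03Rik and Ddx10, an RNA helicase gene. The likeness was the root mean square distance between centred log2 CPM values among 5156 genes with a mean of at least 10 FPKM, and it was 0.116, 0.140 and 0.151. Psmg3 had 46.7 and 24.7 FPKM in control and 11.4 and 6.58 FPKM in treated embryos. The genes most like Yap1 were Lypla1, Fbxo28 and Nup214, at distances of 0.0199, 0.0295 and 0.0315. Lypla1 had 48.6 and 77.8 FPKM in control and 99.9 and 83.4 FPKM in treated embryos. With 4 libraries these distances are descriptions of a shared profile.

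The rest of the pathway was read from 6 lists of 75 genes, of which 63 were tested. edgeR called 0 of the 63, and at an unadjusted p under 0.05 it had 6 lower and 1 higher, where 10.1% of all tested genes were lower and 4.72% higher. Without DMSO replicate 1 these counts were 3 lower and 2 higher of 65, where 7.36% and 6.44% of all tested genes were. DESeq2 with transcript lengths called 2 of the 75 lower, Ywhah and Rhoa, and 0 higher, where it called 2.36% of genes lower. An adjusted p, needed for a call, was given for 45 of the 75 and for 7971 of all genes, 429 of these called lower. The counts of lower and higher pathway genes were near or below the shares over all genes.

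The kinases that activate LATS, with their adaptors and scaffolds, were spread around 0. Of the 14 tested, 7 had a log2FC above 0 and 7 below, with a median of 0.03, and 0 had an unadjusted p under 0.05 in edgeR. Taok1, a kinase upstream of the Hippo kinases, was the most abundant with 31.8 and 38.02 FPKM in control and 37.8 and 37.2 FPKM in treated embryos. Mob1b, the LATS activator, had 21.9 and 24.95 FPKM in control and 26.3 and 29.2 FPKM in treated embryos, with a log2FC of 0.10. Wwc2, a scaffold related to KIBRA, had 7.71 and 17.97 FPKM in control and 20.4 and 23.1 FPKM in treated embryos. Both treated libraries were above both control libraries for Wwc2, and its log2FC was 0.66 (adjusted p = 0.461 by edgeR) and 0.27 without DMSO replicate 1.

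The inhibitors of the Hippo kinases, which are LIM domain proteins and parts of the STRIPAK phosphatase complex, had a median log2FC of -0.77 over 10 tested genes, against 0.04 over all genes. Of the 10, 8 were below 0, where 48.5% of all tested genes were below 0 and 51.5% above, and 3, Slmap, Sike1 and Wtip, were lower at an unadjusted p under 0.05, where 10.1% of all genes were. Without DMSO replicate 1 the median was -0.34 and 1 gene was left at this p. Slmap, which brings STRIPAK to the Hippo kinases, had 42.6 and 25.4 FPKM in control and 11.5 and 17.3 FPKM in treated embryos, a log2FC of -1.42 (adjusted p = 0.333 by edgeR) and of -0.82 without DMSO replicate 1. Sike1, its partner in the complex, had 32.6 and 20.8 FPKM in control and 12.5 and 15 FPKM in treated embryos. Wtip, a LIM protein that binds LATS, had 1.59 and 1.48 FPKM in control and 0.26 and 0.12 FPKM in treated embryos. Sike1 and Wtip were named after their values were seen. Strn3 had 41.1 and 31.9 FPKM in control and 20.1 and 24.2 FPKM in treated embryos, with a log2FC of -0.89 (adjusted p = 0.337 by edgeR), and without DMSO replicate 1 it was -0.54. Its paralog Strn, named after its values were seen, had 4.78 and 15.9 FPKM in control and 23.8 and 19.8 FPKM in treated embryos. Both treated libraries were above both control libraries for Strn, with a log2FC of 1.001 by edgeR and of 0.45 without DMSO replicate 1. The catalytic subunit gene Ppp2ca, which serves many other complexes, had 98.1 and 96.3 FPKM in control and 98.4 and 108 FPKM in treated embryos.

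Among other partners of YAP1 and the TEADs, Ywhah was lower and the other 14-3-3 genes lay on both sides of 0. The 14-3-3 proteins hold phosphorylated YAP1 in the cytoplasm. Ywhah had 296 and 156 FPKM in control and 77.7 and 86.3 FPKM in treated embryos. The treated libraries were close together and below both control libraries, with a log2FC of -1.64 by edgeR (adjusted p = 0.333), -0.92 without DMSO replicate 1, and -1.66 by DESeq2 with lengths (adjusted p = 0.0230). Ywhaz had 65.8 and 228 FPKM in control and 345 and 331 FPKM in treated embryos, a log2FC of 1.13 (adjusted p = 0.357 by edgeR) and of 0.56 without DMSO replicate 1. Ywhae and Ywhaq, the most abundant of the list, had a log2FC of -0.07 and -0.27. Btrc, the receptor of the ubiquitin ligase that marks phosphorylated YAP1 for degradation, had an unadjusted p of 0.0247 by edgeR and 6.76 and 3.25 FPKM in control against 1.17 and 2.33 FPKM in treated embryos. edgeR put the log2FC of Btrc at -1.70, and at -0.88 without DMSO replicate 1, where it no longer had a p under 0.05. Btrc was named after its values were seen. The median log2FC of the 14 tested partners was -0.01, and 0.26 over 15 without DMSO replicate 1.

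Cell polarity and cytoskeleton genes, which act on the angiomotins and LATS once cells are polarized, had a median log2FC of 0.45 over 11 tested genes, 8 above 0, where 51.5% of all tested genes were above 0. The median was 0.23 without DMSO replicate 1. Rhoa, a small GTPase, had 285 and 167 FPKM in control and 81.5 and 113 FPKM in treated embryos, a log2FC of -1.40 by edgeR (adjusted p = 0.333), -0.78 without DMSO replicate 1, and -1.41 by DESeq2 with lengths (adjusted p = 0.0479). Rock1, a kinase activated by RHOA, had 119 and 199 FPKM in control and 242 and 228 FPKM in treated embryos, with a log2FC of 0.45 (adjusted p = 0.573 by edgeR). Pard3 had 21.6 and 49.2 FPKM in control and 62.2 and 60.7 FPKM in treated embryos, with a log2FC of 0.71 (adjusted p = 0.423 by edgeR). For Rock1 and Pard3 DMSO replicate 2 was much nearer to the treated libraries than DMSO replicate 1 was. Pard6a, a polarity scaffold gene named after its values were seen, had 0.75 and 1.81 FPKM in control and 6.63 and 5.97 FPKM in treated embryos, with an unadjusted p of 0.0256 by edgeR.

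Of 21 genes commonly used to read out YAP1 and TEAD activity, 9 reached 1 FPKM in any library and 2, Ankrd1 and Foxf2, were at 0 in all. Of the 21, 12 were tested, 0 had an unadjusted p under 0.05 in edgeR, and the median log2FC was 0.52, or 0.16 over 13 genes without DMSO replicate 1. Ctgf and Cyr61, the most used of them, were under 1 FPKM in every library, at 0.10 and 0 FPKM in control and 0.32 and 0 FPKM in treated embryos for Ctgf, and at 0.69 and 0.75 FPKM in control and 0.14 and 0 FPKM in treated embryos for Cyr61. Both were named after their values were seen. Birc5, a cell division gene, led the list with 1276 and 1369 FPKM in control and 1371 and 1325 FPKM in treated embryos, a log2FC of -0.11. Tgfb2 had 20.8 and 124 FPKM in control and 190 and 159 FPKM in treated embryos, and Gadd45a had 100.4 and 34.9 FPKM in control and 45.1 and 35.9 FPKM in treated embryos. In both genes DMSO replicate 1 was the library apart. Of the lineage genes under TEAD4 and YAP1 in the later embryo, Cdx2 was at 0 in 3 libraries and at 0.12 FPKM in DMSO replicate 2. Gata3 had 0.68 and 3.48 FPKM in control and 3.81 and 2.29 FPKM in treated embryos, and Sox2 had 0.24 and 3.18 FPKM against 2.23 and 6.59 FPKM, with overlap in both.

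**Figure D4:**
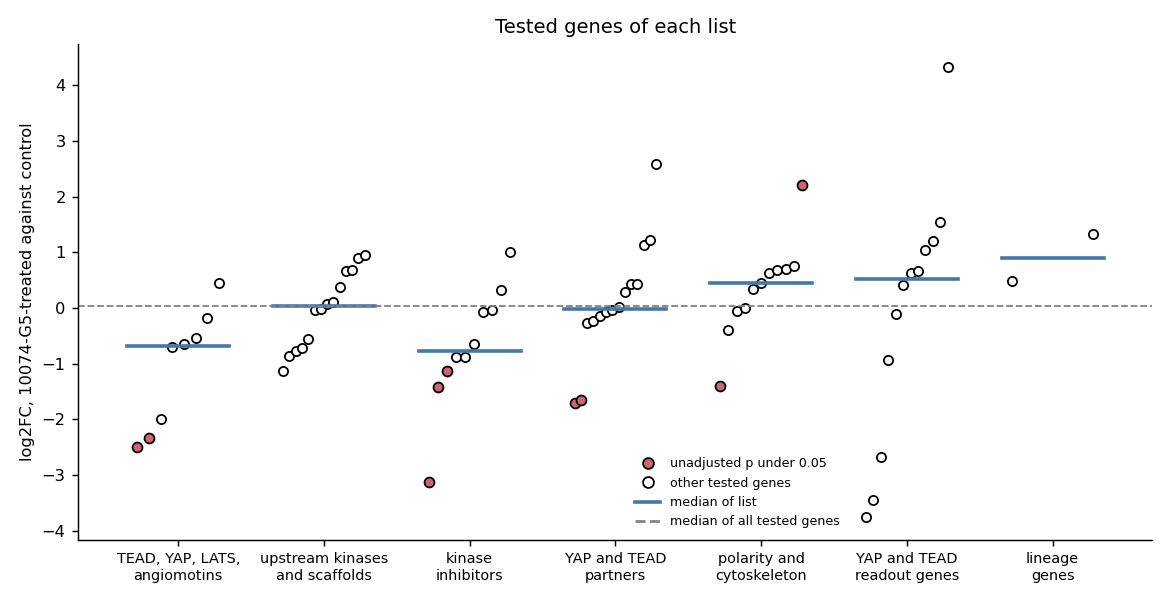
log2FC by edgeR of every tested gene of the 10 genes and of the 6 pathway lists (points, filled at an unadjusted p under 0.05), with the median of each list (blue lines) and of all tested genes (dashed line, 0.04). Filled points lie below 0 for the 10 genes, the kinase inhibitors and the YAP and TEAD partners, and on both sides of 0 for the polarity genes. The list medians run from -0.77 for the kinase inhibitors to 0.91 for the lineage genes, which are 2 genes. Without DMSO replicate 1 these medians are -0.34 and 0.14.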

How the data were processed

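Late two-cell embryos were compared between 2 control and 2 MYC inhibitor-treated libraries, grouped and numbered by their titles. Polyadenylated RNA was amplified with a SMART-Seq v4 kit, which does not mark strand. The authors mapped read pairs to mm10 with STAR (2.7.10), kept reads with a single match and estimated gene levels with RSEM (1.3.3), per the labels and the methods, with versions from the submitters' processing notes. The expected count, the TPM and the FPKM deposited by the authors are RSEM's estimates, the first not normalized, and the effective length deposited with them was used in alternatives.

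Expected counts were rounded and filtered by filterByExpr (minimum count 10, minimum total 15), which kept 13549 genes, scaled by TMM and tested with edgeR 4.0.16 (quasi-likelihood, robust, Benjamini-Hochberg) in R 4.3.3. A call needed an adjusted p under 0.05 and |log2FC| > 1. DESeq2 1.42.0 and limma 3.58.1 were alternatives. On simulated counts of this comparison, 200 of 13549 genes had a true |log2FC| of 2, in both directions. edgeR called 14.5% of the changed genes and DESeq2 38.8%, and 10.3% and 35.3% of their calls were unchanged genes. Genes were drawn independently, so a library apart over many genes, as DMSO replicate 1 was, was not simulated. These rates may therefore not hold for the real libraries. The methods call the replicates biological, and nothing states that they came from separate litters. The p-values therefore rest on the spread between these libraries, which edgeR estimates for each gene with information from all tested genes. PCR copies were counted as molecules.

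The genes and lists were chosen with earlier results of these data known. Named were the 10 genes, the 3 genes of each list with the highest mean FPKM, genes called by edgeR or DESeq2 with lengths, and the 3 nearest profiles to Tead4 and Yap1. Promoters are from RefSeq (GRCm38.p6), and coordinates from RefSeq's annotation of the same build as mm10.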

Additional observations from a re-analysis of the deposited data

How the results depend on the processing

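edgeR called 0 of 13549 genes, and 0 of the 10 genes and 0 pathway genes among them. The counts of calls moved most with the tool, the filter and the library left out. DESeq2 called 524 genes on all genes with at least 1 count (1 of the 10 genes, Tead4, and 2 pathway genes), 566 on the genes edgeR tested (1, Tead4, and 3) and 512 with transcript lengths (1, Tead4, and 2). Without a filter on low counts edgeR called 644 genes (1, Tead4, and 2). With the replicate number as a block it called 44 genes, none of them among the 10 or the pathway lists. The labels give this block as a shared number only. The deviations of same-numbered libraries from their group means had a correlation of -0.03. With 2 libraries in each group the 2 deviations of a gene mirror each other, so this value cannot decide whether same-numbered libraries were paired. When libraries were left out singly, the calls ranged from 2 to 4213 genes, from 0 to 3 of the 10 genes and from 0 to 20 pathway genes, with the highest counts without DMSO replicate 2, when Tead1 and Lats2 were called beside Tead4. An arm left with 1 library was assumed to vary like the other. The cause of these differences was not tested. Limma, the other scalings and the filter of 10 counts in every library called 0 genes.

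At an unadjusted p under 0.05, counts chosen after earlier results were known, 2 of the 10 genes passed in edgeR. This count was 1 with limma on log2(FPKM + 1) and on log2(FPKM + 0.1) with a filter, 1 with library totals and 1 with the replicate block, 3 (with Tead1) in each DESeq2 fit and without a filter, and 1 to 4 with a library left out, where Tead4 passed in all but the fit without treated replicate 2. The 7 pathway genes became 11 with DESeq2 on the genes edgeR tested, 4 with limma on log2(FPKM + 0.1), 12 without a filter and 0 to 27 with a library left out, 27 of them without DMSO replicate 2. The log2FC of Tead2 turned positive with limma (0.022 and 0.049 with pseudocounts of 1 and 0.1, and 0.022 without a filter), with library totals (0.011), without DMSO replicate 1 (0.57) and without treated replicate 2 (0.12), and with 1 library left out it ran from -0.66 to 0.57. The Tead4 and Yap1 shares kept their direction under every alternative run, the replicate block included, where the Tead4 share differed by -22.6 and -43.8 points within the numbers. Library totals moved the median log2FC of all genes from 0.04 to 0.17. Tead3 and Amotl2 were too low for the main edgeR fit. DESeq2 with transcript lengths gave Tead3 a log2FC of 5.81 (SE 3.39) and Amotl2 one of 0.83 (SE 4.07). It left both adjusted p-values empty. In limma without a filter Tead3 had an unadjusted p under 0.05.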

Other observations

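Values computed after the levels had been seen describe the balance between coactivator and TEAD transcripts. The summed FPKM of Yap1 and Wwtr1 per summed TEAD FPKM was 3.13 and 8.61 in control and 14.4 and 17.8 in treated embryos, and an exact two-sided permutation test gave the smallest p it can, 0.333. For Yap1 per Tead4 the ratio was 3.07 and 8.25 in control and 28.1 and 43.2 in treated embryos. The control replicates differed by more than 2-fold in both ratios, and the groups did not overlap. The summed LATS level was 6.93 and 3.21 FPKM in control and 2.09 and 2.15 FPKM in treated embryos, also without overlap, and DMSO replicate 1 was the highest library. This sum includes the FPKM of Lats2, which moves with the transcript assignment as well as with its low counts. Of single tested genes, 28.3% were lower without overlap.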
